A study of Rattus norvegicus with 40 samples.

Results

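The hippocampus of female rats whose dams ate chow with 750 ppm lead acetate was compared with that of female rats whose dams ate chow with 250 ppm. These 8 arrays, 4 of each dose and 1 RNA sample each, were chosen by their labels for sex, dose and exposure window out of 40 in the series. In both groups the dams had the lead chow from 10 days before breeding until the pups were weaned, and the pups then ate control chow until they were killed at postnatal day 55. According to the labels the groups differ in dose and in the range of their sample numbers, and both are exposed. Strain, litters and blood lead were not given in the sources used here, and several of these samples may share a dam. The p-values measure only the spread between samples within groups, estimated over all 40 arrays of the series. Other arrays, 4 in each group, served for comparison. They came from males exposed perinatally to 750 or 250 ppm, females and males exposed to 750 or 250 ppm from birth to postnatal day 45, and females and males on control chow, all killed at the same age.

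Lead enters the body through routes that carry essential metals, displaces calcium and zinc from proteins, and inhibits 5-aminolevulinic acid dehydratase, an enzyme of heme synthesis. In the hippocampus, which serves learning and memory, lead is known to block NMDA receptors. Metallothioneins are small cysteine-rich proteins that bind zinc and heavy metals, and their genes are induced by metals and by glucocorticoids.

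The values are log2 signals, so a difference of 1 is a doubling of signal, and all 29214 probe sets were tested with limma on the 40 arrays. Array medians lay between 6.967 and 7.043 at 750 ppm and between 6.998 and 7.035 at 250 ppm. Across probe sets the 8 arrays correlated pairwise at r = 0.993 to 0.997, and the SD of a probe set over the 4 arrays of a dose had a median of 0.103 log2 at each dose. Eif2s3, an X-linked gene, read 11.62 to 11.71 at 750 ppm and 11.64 to 11.77 at 250 ppm, above the 11.15 to 11.42 of the exposed males, so all 8 arrays matched their sex label. Among the 8 controls, 3 arrays did not match theirs. Markers of hippocampal excitatory neurons averaged 10.48 to 10.56 per array at 750 ppm and 10.48 to 10.60 at 250 ppm. In the sample numbers of the titles, the 750 ppm females (1978 to 1981) follow directly on the controls (1970 to 1977), whereas the 250 ppm females (2857 to 2860) lie in another range. What the numbers stand for is not stated. Dose and number range cannot be told apart.

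At an adjusted p under 0.05 (limma, Benjamini-Hochberg over all probe sets), 25 of 29214 probe sets differed between the doses, 0.0856% of those tested. Of these, 22 were higher at 750 ppm (0.0753%) and 3 were lower (0.0103%). They comprise 7 probe sets shared by major urinary protein genes, 15 probe sets for 13 named genes, and 3 probe sets without a gene name. The 13 genes are Alb, Apoc3, Apoh, Sult1a1, Tsc22d3, Nat8f1, Ret, Cdc42ep5, Mt1 and Mt2A on the higher side, and Phf20l1, Egfem1 and Car4 on the lower side. In all 25 the 4 values of 1 dose lay entirely above the 4 of the other, as they did in 5.34% of all probe sets. The exact two-sided permutation p was 0.0286 for each of the 25, the smallest that 4 against 4 allows. The 750 ppm array of replicate 3 was the highest of its group in 16 of the 22 probe sets that were higher. Without that array 8 probe sets passed, and the adjusted p of the other 17 ran from 0.0547 to 0.239. With 1 of the 8 arrays left out in turn, 7 of the 25 passed in every fit, and 18 lost the call in at least 1. A fit of the 8 arrays alone called 10 probe sets, 5 of them among the 25.

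**Figure D1:**
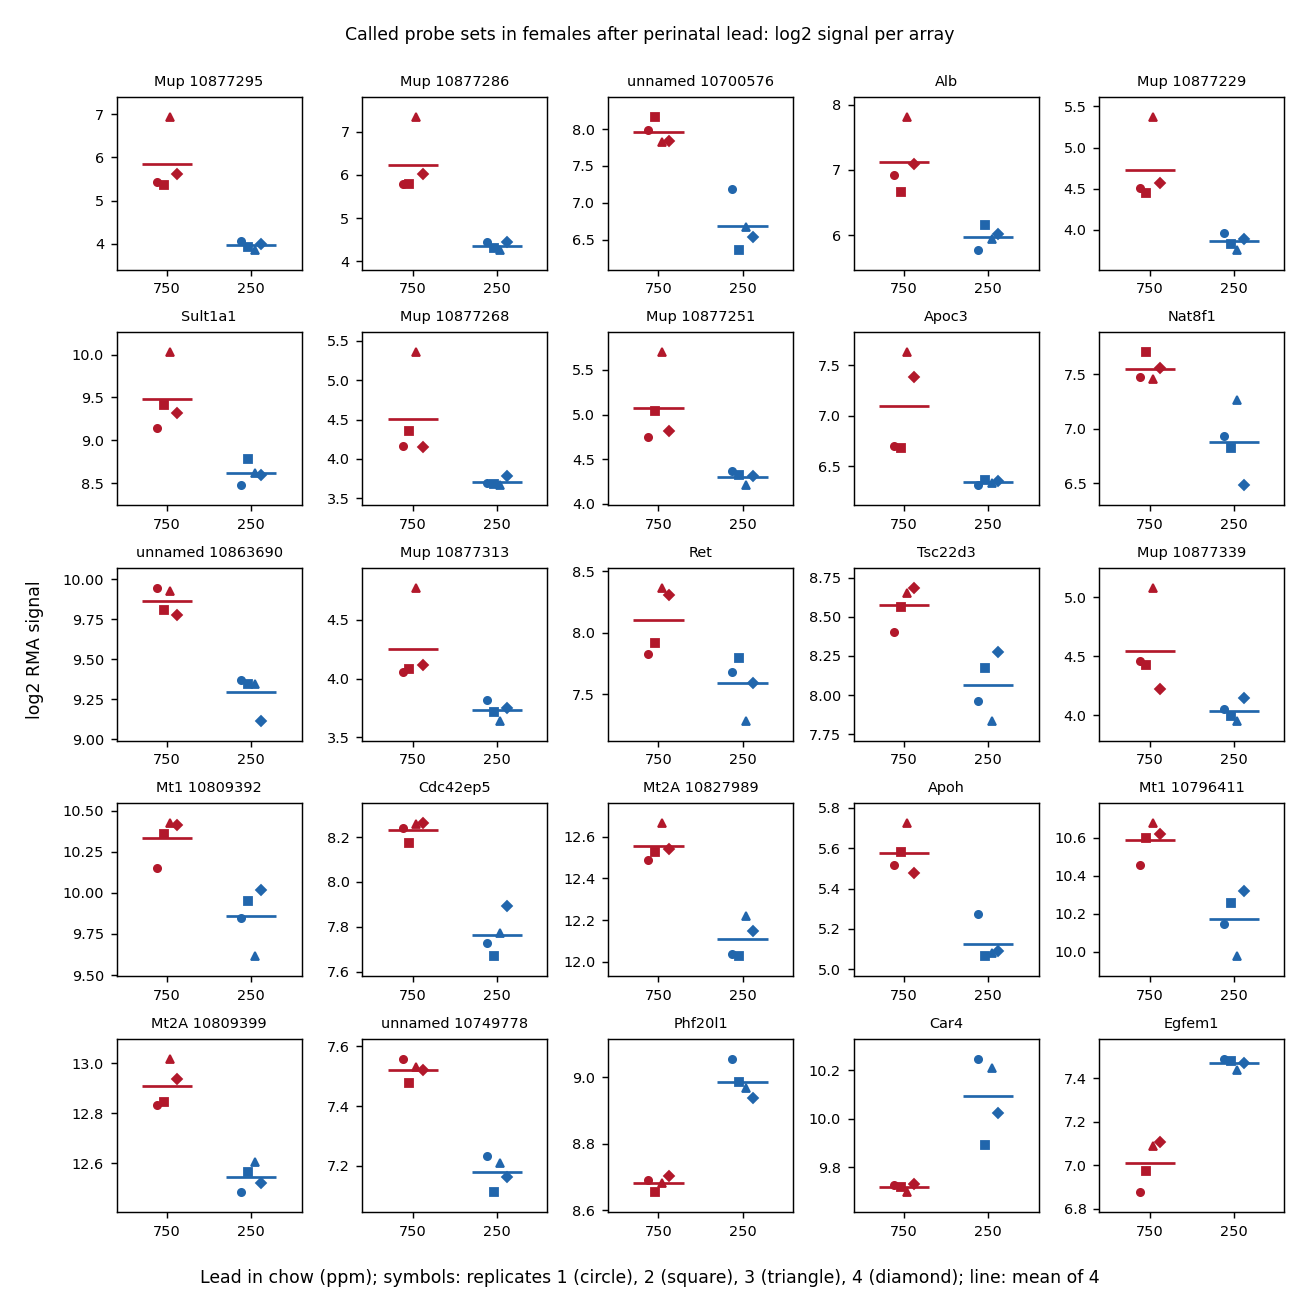
Log2 signal (vertical axes) of the 25 probe sets that differed between doses, in each of 4 arrays at 750 ppm (red, left) and 4 at 250 ppm (blue, right), with symbols for replicates and lines for means. No panel has overlapping groups, and the triangle of 750 ppm replicate 3 stands apart in the major urinary protein (Mup) panels, for example at 6.94 against 5.36 to 5.62 in its group for probe set 10877295.

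The widest dose difference lay in the major urinary proteins, lipocalins that the rodent liver secretes and that carry odorants in urine. The array has 12 probe sets for these genes. Of them 11 are shared by near-identical copies (Mup4, Mup4l1, Mup4l3, Mup4l4, Mup5 and Obp3 in most cases), so the signal cannot be given to a single gene. Probe set 10877295 read 5.44, 5.36, 6.94 and 5.62 in the 750 ppm females, against 4.06, 3.93, 3.86 and 4.01 in the 250 ppm females. Every 750 ppm value was above every 250 ppm value, and the difference was 1.88 ± 0.18 log2 (SE, adjusted p = 4.18e-08, limma). Probe set 10877286 had 5.78, 5.78, 7.35 and 6.01 at 750 ppm, against 4.43, 4.30, 4.26 and 4.44 at 250 ppm, a difference of 1.87 ± 0.19 log2 (SE, adjusted p = 1.55e-07, limma). The groups were again apart, with replicate 3 far above the other 750 ppm arrays. The other 5 Mup probe sets that passed differed by 0.51 to 0.87 log2, and replicate 3 was the highest 750 ppm array in all 7. In total 11 of the 12 were higher at 750 ppm. The exception was the only Mup probe set with a single symbol, Mup5, at 3.35 ± 0.25 in 750 ppm females and 3.43 ± 0.18 in 250 ppm females (SD, n = 4 each).

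These probe sets are dim on most arrays. Probe set 10877295 read 3.66 to 4.25 on the other 32 arrays, with a median of 3.95, which is the level of the 250 ppm females. The deposited values carry no detection call, so whether such a level lies above background is unknown here. Without 750 ppm replicate 3 the difference was 1.51 log2 for 10877295 and 1.498 log2 for 10877286, and both still passed. In the fit of the 8 arrays alone their adjusted p was 0.0761 and 0.0772, so the call of these 2 probe sets rests on a spread estimated over all groups.

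The genes of 3 plasma proteins made by the liver were also higher at 750 ppm. Alb, serum albumin, read 6.92, 6.66, 7.82 and 7.09 at 750 ppm and 5.78, 6.16, 5.95 and 6.02 at 250 ppm. The groups did not overlap, and the difference was 1.15 ± 0.14 log2 (SE, adjusted p = 8.92e-06, limma). Apoc3, an apolipoprotein that slows the clearance of triglyceride-rich particles, had 6.70, 6.68, 7.63 and 7.38 at 750 ppm, against 6.31, 6.37, 6.33 and 6.35 at 250 ppm. Its 250 ppm values were nearly identical (SD 0.02), while at 750 ppm replicates 3 and 4 were clearly above replicates 1 and 2, and the difference was 0.76 ± 0.13 log2 (SE, adjusted p = 0.0050, limma). Apoh, the phospholipid-binding plasma protein also called beta-2-glycoprotein I, was at 5.52, 5.58, 5.72 and 5.48 in the 750 ppm females and 5.27, 5.06, 5.08 and 5.09 in the 250 ppm females. Its difference was 0.45 ± 0.09 log2 (SE, adjusted p = 0.0275, limma), and 250 ppm replicate 1 came closest to the 750 ppm values. In the fit of the 8 arrays alone none of the 3 genes passed (adjusted p = 0.119 for Alb, 0.246 for Apoc3 and 0.132 for Apoh, limma).

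Of 32 measured genes in the list of liver plasma proteins and enzymes, 23 were higher at 750 ppm, where 57.2% of all 14506 genes were. Only those 3 passed the test, against a background of 0.0827% of genes called. The median difference was 0.14 log2, beside 0.02 for all genes, and an unadjusted p under 0.05 was found for 11 members, all higher, where 8.01% of all genes had one, 6% on the higher side. Alb and Apoc3 were already known from earlier results of these data, so their calls are no independent evidence. Without them 21 of 30 were higher, 9 had an unadjusted p under 0.05, all higher, and the median was 0.13 log2. Gc, the vitamin D-binding protein, differed by 0.59 ± 0.15 log2 and Fgg, the fibrinogen gamma chain, by 0.37 ± 0.11 log2 (SE), with adjusted p of 0.198 and 0.252 in limma. Apoa1 (-0.04), Serpinc1 (-0.12), Hp (-0.05) and the liver enzymes Tat (-0.02), Pck1 (-0.01) and G6pc1 (-0.07) were not higher. The mean level of the list was 5.70, 5.64, 5.96 and 5.69 in the 750 ppm arrays and 5.56, 5.56, 5.59 and 5.55 in the 250 ppm arrays, so the doses did not overlap and replicate 3 was again highest. The mean levels of 6 of the 27 lists were apart in this way, the others being metal handling, glucocorticoid response, astrocytes, oxidative stress defence and, narrowly, heat shock. On the other 32 arrays this mean ran from 5.502 to 5.765, and only replicate 3 lay outside that range.

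Markers of blood and of membranes around the brain were set beside these genes. Of 7 red blood cell genes, 6 were higher at 750 ppm, with a median difference of 0.54 log2, and none passed the adjusted test (4 had an unadjusted p under 0.05, all higher). Of all genes 57.2% were higher and 6% were higher with such a p, and their median difference was 0.02 log2. Alas2, the erythroid enzyme that starts heme synthesis, averaged 7.84 ± 0.20 at 750 ppm and 7.21 ± 0.25 at 250 ppm (SD, n = 4 each). Its lowest 750 ppm value, 7.54, was above its highest 250 ppm value, 7.50, but the difference of 0.63 ± 0.17 log2 (SE) had an adjusted p of 0.213 in limma. Hbb, a beta-globin gene, differed by 0.57 ± 0.19 log2 (SE, adjusted p = 0.369, limma). The list's mean level ran from 7.69 to 8.07 at 750 ppm, from 7.44 to 7.74 at 250 ppm and from 7.38 to 8.40 on the other arrays, so both doses lay inside the range of the rest. Meningeal fibroblast genes averaged 8.47 to 9.16 at 750 ppm and 8.17 to 8.62 at 250 ppm, and the array at 9.16 was replicate 3, which also led the Mup and liver genes. All 10 were higher at 750 ppm with a median of 0.27 log2, and none passed or had an unadjusted p under 0.05 in limma. The other 32 arrays ran from 7.91 to 9.11, so replicate 3 lay above them all. The part of blood and meninges in the result was not tested.

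Markers of the choroid plexus were high on 3 of the 8 arrays. Ttr, transthyretin, the leading product of the choroid plexus, read 13.38, 12.67, 9.48 and 9.50 at 750 ppm and 9.26, 9.71, 13.17 and 9.44 at 250 ppm. Replicates 1 and 2 at 750 ppm and replicate 3 at 250 ppm were thus the high ones, and the doses overlapped fully. The list median of 0.64 log2 over 11 genes came with no member at an unadjusted p under 0.05, and it was -0.03 without 750 ppm replicate 1 and 1.36 without 250 ppm replicate 3. The array highest in Mup 10877295 and Alb was 750 ppm replicate 3, with Ttr at 9.48. Replicates 1 and 2 at 750 ppm, high in Ttr, also lay above all 250 ppm arrays in Mup 10877295 and Alb. The part of the choroid plexus in the result was not tested.

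**Figure D2:**
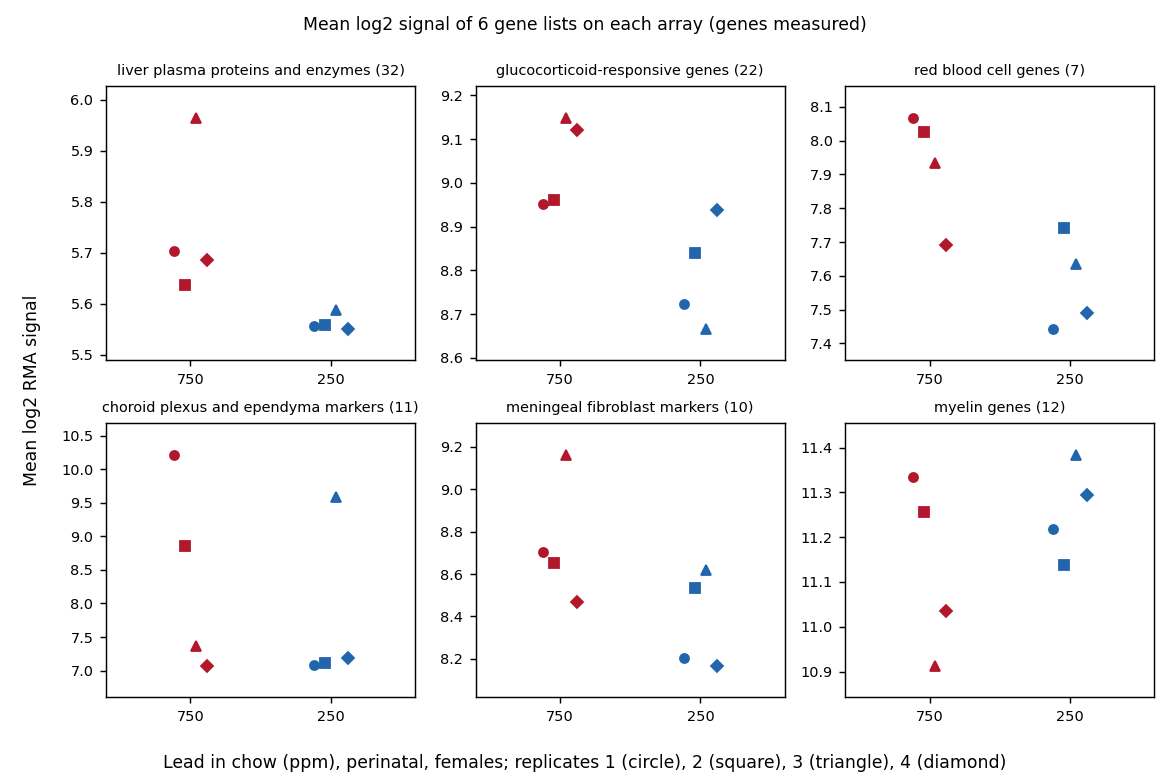
Mean log2 signal (vertical axes) of 6 gene lists on each array, with 4 arrays at 750 ppm (red, left) and 4 at 250 ppm (blue, right) and symbols for replicates. The liver list is apart between doses (5.64 to 5.96 against 5.55 to 5.59), the glucocorticoid list narrowly so (8.95 to 9.15 against 8.67 to 8.94), and the other 4 lists overlap.

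Mt1 and Mt2A, the widely expressed metallothionein genes, were higher at the higher dose. They have 2 probe sets each, and all 4 passed. The 2 genes are close in sequence, so their probe sets may share signal. Their promoters, and that of the brain form Mt3, are shown because metals act on these genes through short elements near the start of transcription. The sequences are RefSeq's for GRCr8, from 250 bases before to 50 after the annotated start, all on the minus strand of chromosome 19. They lie at chr19:10832926-10833225 for Mt1, chr19:10838659-10838958 for Mt2A and chr19:10856031-10856330 for Mt3. Capitals mark matches on either strand to TGCACNC or TGCGCNC, the core of the metal response element.
Mt1: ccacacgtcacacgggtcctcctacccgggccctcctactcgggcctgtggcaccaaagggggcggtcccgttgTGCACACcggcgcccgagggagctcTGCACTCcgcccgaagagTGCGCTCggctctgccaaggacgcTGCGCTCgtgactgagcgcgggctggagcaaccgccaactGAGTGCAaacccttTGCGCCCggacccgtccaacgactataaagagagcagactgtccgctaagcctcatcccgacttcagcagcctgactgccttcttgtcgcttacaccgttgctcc
Mt2A: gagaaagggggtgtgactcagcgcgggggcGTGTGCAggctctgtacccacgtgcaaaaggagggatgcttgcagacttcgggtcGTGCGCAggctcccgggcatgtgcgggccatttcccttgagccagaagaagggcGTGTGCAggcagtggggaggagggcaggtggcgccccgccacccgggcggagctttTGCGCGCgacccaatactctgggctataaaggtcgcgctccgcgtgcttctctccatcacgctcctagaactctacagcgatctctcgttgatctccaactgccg
Mt3: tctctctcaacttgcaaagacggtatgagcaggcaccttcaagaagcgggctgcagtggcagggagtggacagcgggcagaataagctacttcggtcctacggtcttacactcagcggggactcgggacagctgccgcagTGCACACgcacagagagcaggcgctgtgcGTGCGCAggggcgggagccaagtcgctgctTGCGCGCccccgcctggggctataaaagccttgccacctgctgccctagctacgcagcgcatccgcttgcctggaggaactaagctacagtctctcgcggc
The Mt1 window holds 6 matches, that of Mt2A 4 and that of Mt3 3, with no overlap among them. Of 33469 windows of 300 bases, 24.2% hold at least 1 match, 1.68% hold 3 or more, 0.439% hold 4 or more and 0.0388% hold 6 or more. A match is a run of letters, and binding was not measured.

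Mt2A probe set 10827989 read 12.49, 12.52, 12.66 and 12.54 at 750 ppm and 12.04, 12.03, 12.22 and 12.15 at 250 ppm. The difference was 0.45 ± 0.09 log2 (SE, adjusted p = 0.0275, limma), with every 750 ppm value on top. Its other probe set, 10809399, differed by 0.36 ± 0.07 log2 (SE, adjusted p = 0.0278, limma). Mt1 probe set 10809392 had 10.15, 10.36, 10.42 and 10.41 at 750 ppm and 9.85, 9.95, 9.61 and 10.02 at 250 ppm, a difference of 0.48 ± 0.10 log2 (SE, adjusted p = 0.0275, limma), and probe set 10796411 differed by 0.41 ± 0.09 log2 (SE, adjusted p = 0.0428, limma). The groups were apart in each, most narrowly in Mt1 between 750 ppm replicate 1 and 250 ppm replicate 4. Mt3, made chiefly in brain, had 10.50, 10.43, 10.41 and 10.40 at 750 ppm against 10.48, 10.26, 10.31 and 10.49 at 250 ppm, and its difference of 0.05 ± 0.07 log2 (SE) did not pass (adjusted p = 0.874, limma). Both Mt2A probe sets also passed in the fit of the 8 arrays alone (adjusted p = 0.0232 and 0.0269, limma), and the Mt1 probe sets did not (0.127 and 0.119). These calls were weak to the loss of an array: with 1 of the 8 left out in turn, Mt2A 10809399 and 10827989 lost theirs in 7 and 6 of 8 fits (adjusted p up to 0.228 and 0.227, limma), and Mt1 10809392 and 10796411 in 5 and 6 (up to 0.218 and 0.278).

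The median of the 8 control arrays lay between the doses for Mt1. Probe set 10809392 ran from 9.85 to 10.24 in controls, with a median of 10.10, so that all 750 ppm values were above that median and all 250 ppm values below it, while each dose kept at least 1 value inside the control range. Mt2A probe set 10827989 ran from 11.95 to 12.44 in controls, and only its 750 ppm values were all outside. Of the 19 measured genes in the list of metal handling, 12 were higher at 750 ppm (57.2% of all genes were) with a median of 0.05 log2. Mt1 and Mt2A were the only members that passed, and 4 had an unadjusted p under 0.05, all higher. The list holds genes already known from earlier results of these data, so it is no independent evidence. Without the known genes 10 of 17 were higher, 2 had an unadjusted p under 0.05, both higher, and the median was 0.05 log2. Slc30a1, a zinc exporter whose gene responds to the same metal-sensing factor, differed by 0.24 ± 0.08 log2 (SE, adjusted p = 0.402, limma), at 7.97 ± 0.05 in 750 ppm females and 7.73 ± 0.15 in 250 ppm females (SD, n = 4 each). Mtf1, that factor's gene, was at -0.08 log2, and the iron storage genes Fth1 and Ftl1 were at 0.06 and -0.09 log2.

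In a list of genes that glucocorticoids induce, 2 of 22 measured members passed, Tsc22d3 and Sult1a1, beside 0.0827% of all genes. Of the 22, 18 were higher at 750 ppm (57.2% of all genes were), and the median was 0.25 log2. An unadjusted p under 0.05 was found for 12, all of them higher, where 6% of all genes were higher with such a p. The list holds 6 genes already known from earlier results of these data. Tsc22d3 and Sult1a1 are among them, so these 2 calls are no independent evidence. Without the 6 known genes no called member is left, 12 of 16 were higher, 6 had an unadjusted p under 0.05 and the median was 0.14 log2. The list's mean level was 8.95, 8.96, 9.15 and 9.12 at 750 ppm and 8.72, 8.84, 8.67 and 8.94 at 250 ppm. The lowest 750 ppm array was only just above the highest 250 ppm array.

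Tsc22d3, the glucocorticoid-induced leucine zipper, read 8.40, 8.56, 8.65 and 8.69 at 750 ppm and 7.96, 8.17, 7.84 and 8.28 at 250 ppm. All 750 ppm values were higher, and the difference was 0.51 ± 0.11 log2 (SE, adjusted p = 0.0417, limma). Sult1a1, a phenol sulfotransferase, had 9.15, 9.42, 10.03 and 9.32 at 750 ppm and 8.47, 8.79, 8.62 and 8.60 at 250 ppm, a difference of 0.86 ± 0.16 log2 (SE, adjusted p = 0.0156, limma). Here too replicate 3 was the highest array. In the fit of the 8 arrays alone neither gene passed (adjusted p = 0.139 for Tsc22d3 and 0.119 for Sult1a1, limma). Leaving out 1 array lost the call of Tsc22d3 in 6 of 8 fits and that of Sult1a1 in 3 (adjusted p up to 0.269 and 0.196, limma). Other members had sizeable differences that did not pass: Gpd1, the glycerol-3-phosphate dehydrogenase, 0.57 ± 0.20 (adjusted p = 0.389), Hif3a, a hypoxia-inducible factor subunit, 0.52 ± 0.15 (0.240), and Fkbp5, a chaperone of the glucocorticoid receptor, 0.35 ± 0.10 log2 (SE, adjusted p = 0.282, limma). Sgk1, a kinase of ion transport, was at 10.95, 11.18, 11.38 and 11.22 at 750 ppm and 10.64, 10.98, 10.53 and 11.04 at 250 ppm, so its groups overlapped (0.38 ± 0.15 log2, SE, adjusted p = 0.460, limma). Klf9, another glucocorticoid target, was at -0.12 log2.

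The receptors themselves did not pass. Nr3c2, the mineralocorticoid receptor, had 11.00, 11.08, 11.11 and 11.03 at 750 ppm and 11.39, 11.29, 11.25 and 11.23 at 250 ppm. The groups were apart, but the difference of -0.23 ± 0.06 log2 (SE) had an adjusted p of 0.164 in limma. Nr3c1, the glucocorticoid receptor, was at -0.11 ± 0.06 log2 (SE, adjusted p = 0.614, limma).

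**Figure D3:**
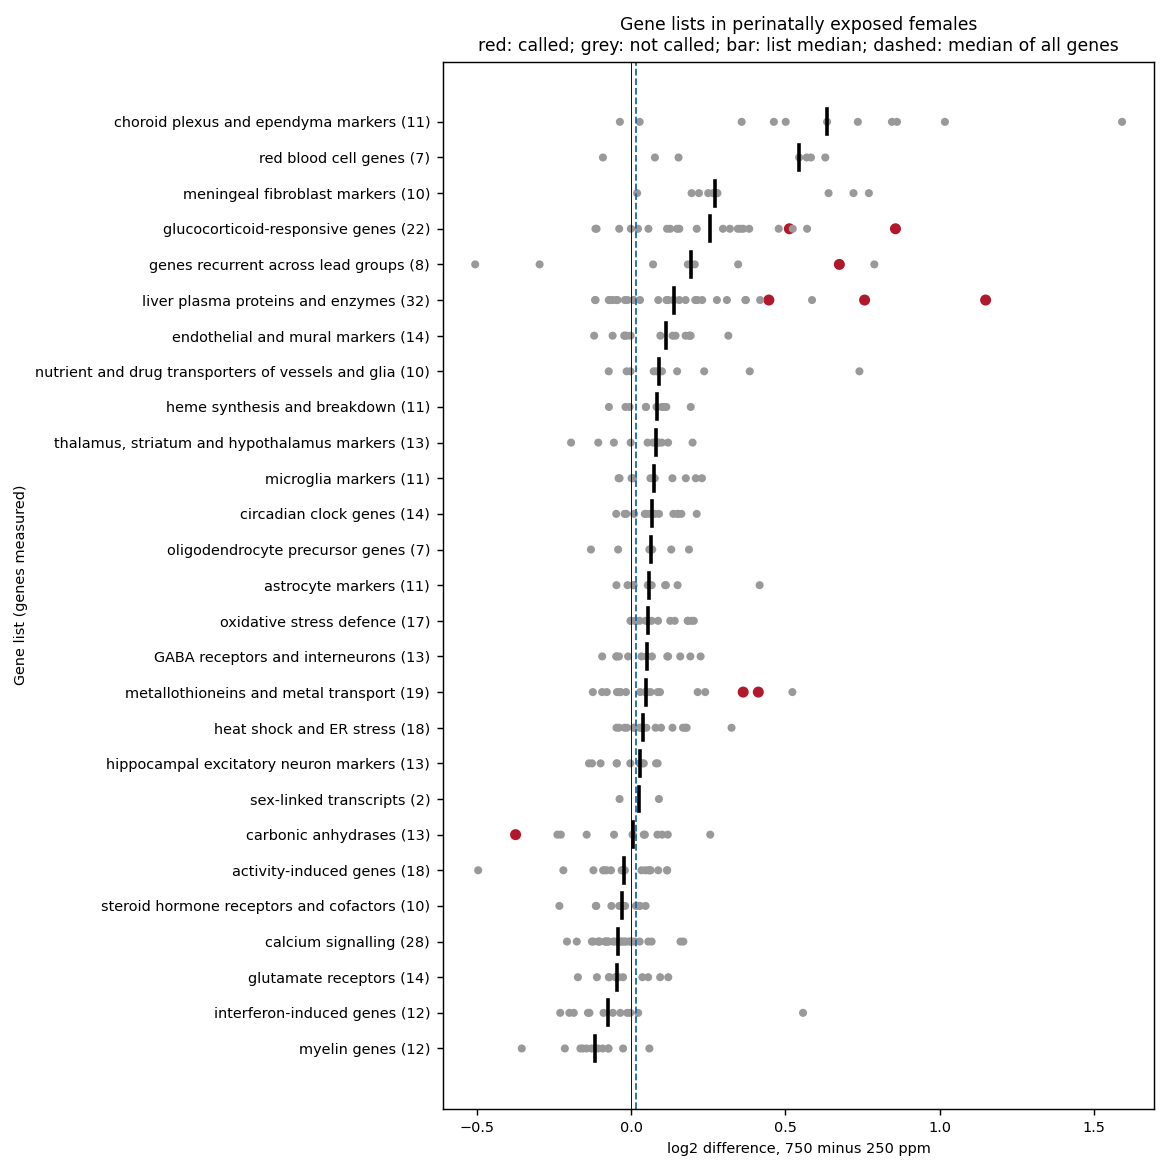
Log2 difference of 750 minus 250 ppm (horizontal axis) for each measured gene of 27 lists, with called genes in red, a bar at each list's median and a dashed line at the median of all genes (0.02). Called genes occur in the liver, glucocorticoid, metal, carbonic anhydrase and recurrent lists, while the choroid list has the highest median (0.64) without a called gene.

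Nat8f1, an acetyltransferase of the NAT8 family, read 7.47, 7.70, 7.45 and 7.56 at 750 ppm and 6.93, 6.82, 7.26 and 6.48 at 250 ppm. The difference was 0.67 ± 0.13 log2 (SE, adjusted p = 0.0219, limma). Ret, the receptor tyrosine kinase for the GDNF family of neurotrophic factors, had 7.83, 7.92, 8.37 and 8.31 at 750 ppm and 7.68, 7.80, 7.28 and 7.59 at 250 ppm, a difference of 0.52 ± 0.10 log2 (SE, adjusted p = 0.0232, limma). Its lowest 750 ppm array and highest 250 ppm array nearly met. Cdc42ep5, an effector of the small GTPase Cdc42, which organises the cytoskeleton, had 8.24, 8.17, 8.26 and 8.26 at 750 ppm and 7.73, 7.67, 7.77 and 7.89 at 250 ppm. The groups were clearly apart (0.47 ± 0.09 log2, SE, adjusted p = 0.0275, limma), and the call held in the fit of the 8 arrays alone (adjusted p = 0.0368, limma). It was lost in 7 of 8 fits that left out 1 array (adjusted p up to 0.160, limma).

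The 3 probe sets that were lower at 750 ppm belong to unlike genes. Phf20l1, a reader of methylated lysines in chromatin, had 8.69, 8.65, 8.68 and 8.70 at 750 ppm and 9.06, 8.99, 8.97 and 8.94 at 250 ppm, a difference of -0.30 ± 0.06 log2 (SE, adjusted p = 0.0237, limma). Car4, a carbonic anhydrase anchored to the outer cell membrane, had 9.73, 9.72, 9.70 and 9.73 at 750 ppm and 10.25, 9.89, 10.21 and 10.03 at 250 ppm, a difference of -0.38 ± 0.08 log2 (SE, adjusted p = 0.0430, limma). Its 750 ppm values were nearly identical and its 250 ppm values were spread. Egfem1, a gene named for its EGF-like and EMI domains, had 6.88, 6.97, 7.09 and 7.11 at 750 ppm and 7.49, 7.48, 7.44 and 7.47 at 250 ppm on probe set 10814545 (-0.46 ± 0.09 log2, SE, adjusted p = 0.0317, limma). The brighter Egfem1 probe set, 10814540, differed by only -0.06 ± 0.11 log2 (SE, adjusted p = 0.908, limma), so the probe sets of this gene disagree. None of the 3 lower calls held in the fit of the 8 arrays alone (adjusted p = 0.0811 for Phf20l1, 0.134 for Car4 and 0.0749 for Egfem1, limma). Leaving out 1 array lost the call of Phf20l1 in 6 of 8 fits, and those of Car4 and Egfem1 in 7 each (adjusted p up to 0.112, 0.252 and 0.122, limma). The 3 unnamed probe sets, 10700576, 10863690 and 10749778, were higher at 750 ppm by 1.26, 0.57 and 0.34 log2 (adjusted p = 2.07e-05, 5.93e-04 and 0.0368, limma). With 1 array left out, 10749778 lost its call in all 8 fits (adjusted p up to 0.196, limma), and 10700576 and 10863690 kept theirs in all 8.

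The 25 probe sets were also set against the 8 control arrays of both sex labels. They had been chosen for a difference between the doses, so the counts are a description. All 4 values at 750 ppm lay outside the range of the 8 control arrays in 19 probe sets, among them the 7 Mup probe sets, Alb, Apoc3, Apoh, Sult1a1, Tsc22d3, Nat8f1 and Ret. Over all 29214 probe sets this held for 1.46%, and for 1.26% at 250 ppm. In 3 probe sets it was the 250 ppm females that lay outside: Phf20l1 above the controls, and Cdc42ep5 and the unnamed 10863690 below them. In the other 3, both Mt1 probe sets and Mt2A 10809399, neither dose did. Among all other 32 arrays, exposed males and postnatal groups included, the 4 values at 750 ppm were outside the range in 12 probe sets (6 of Mup, Alb, Apoc3, Apoh, Nat8f1, Egfem1 and 10700576), and those at 250 ppm in 0. Over all probe sets the shares were 0.0958% at 750 ppm and 0.0205% at 250 ppm.

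**Figure D4:**
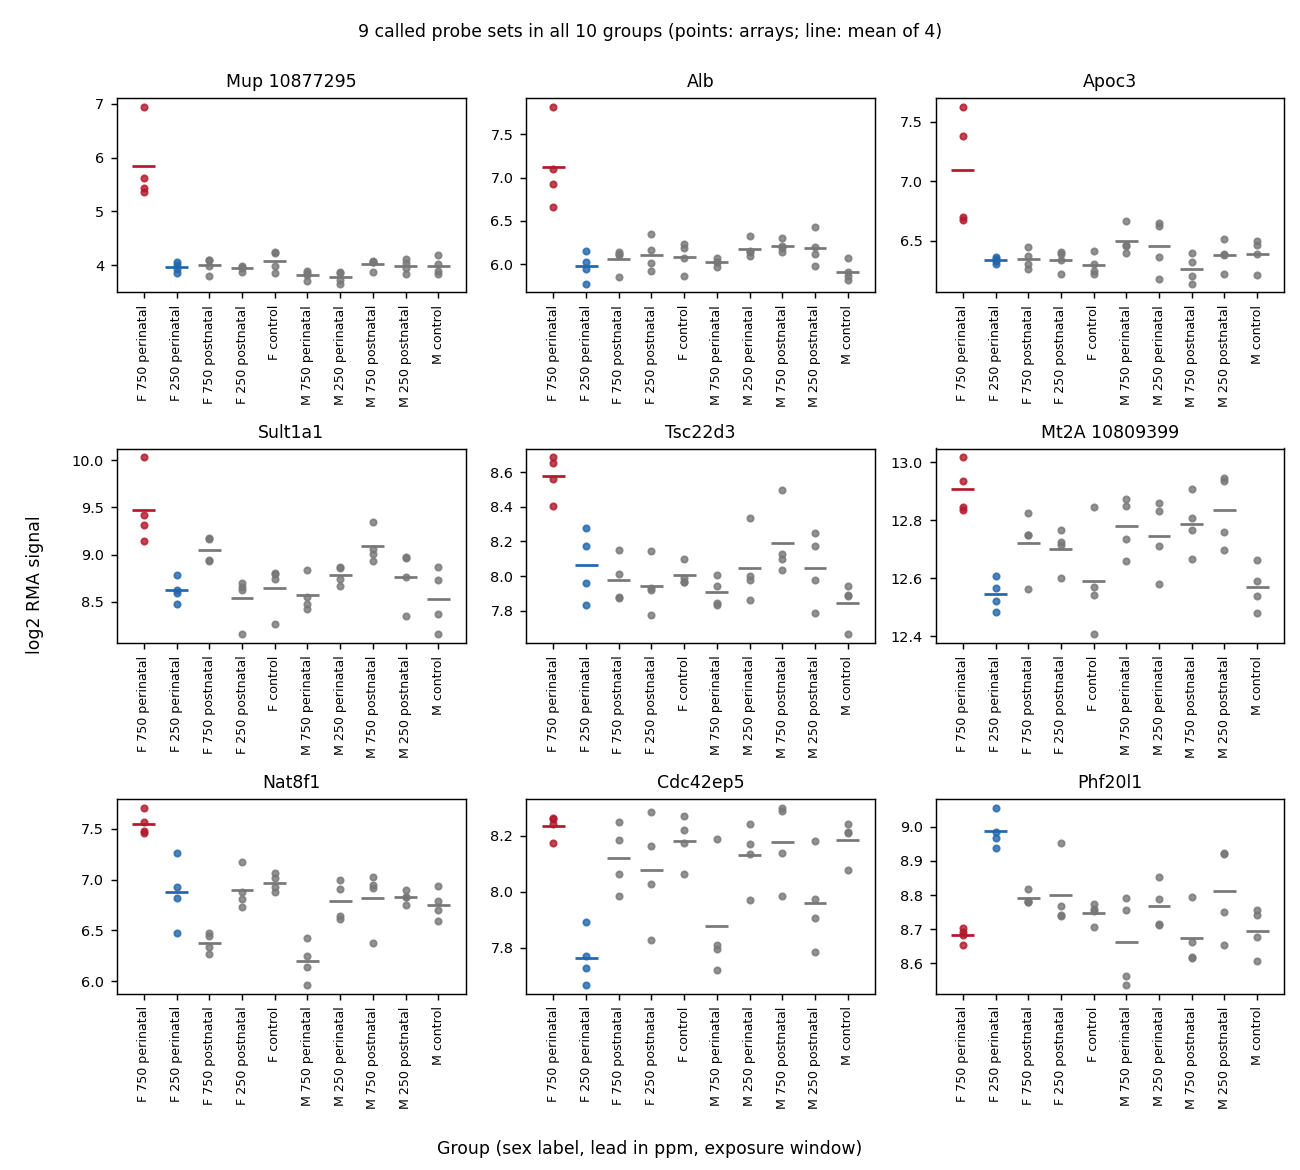
Log2 signal (vertical axes) of 9 probe sets that differed between doses, in all 10 groups of 4 arrays, with the 750 ppm perinatal females in red, the 250 ppm perinatal females in blue, the other groups in grey and lines at means. For Mup, Alb and Apoc3 all red values lie above all others. Alb is at 6.66 or more in red against 6.43 or less elsewhere, and Apoc3 narrowly so, at 6.68 or more against 6.67 or less. The blue values lie outside the range of the 8 controls for Phf20l1 (above) and Cdc42ep5 (below).

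The same doses were compared in males exposed perinatally and in females exposed postnatally, and the difference between dose differences was tested. For sex, 26 probe sets passed (0.089% of 29214), 21 of them with the more positive dose difference in females (0.0719%) and 5 of which carry identical values. Of the 8 perinatal male arrays 3 had a flattened signal, with bright probe sets dimmer and dim ones brighter than on the mean array, and without them 25 passed, 20 of them among the 26. For exposure window in females, 9 passed (0.0308%). Within males the doses differed at 12 probe sets (0.0411%), and within postnatal females at 0 in limma, with 1068 (3.66%) at an unadjusted p under 0.05. Alb was at 6.02 ± 0.04 in 750 ppm males and 6.18 ± 0.10 in 250 ppm males (SD, n = 4 each). Its dose difference in perinatal females exceeded that of perinatal males by 1.31 ± 0.20 log2 (SE, adjusted p = 7.51e-04, limma) and that of postnatal females by 1.20 ± 0.20 log2 (SE, adjusted p = 0.00246, limma). Mup probe set 10877295 gave 1.83 ± 0.25 log2 against males (SE, adjusted p = 3.56e-04) and 1.82 ± 0.25 log2 against postnatal females (SE, adjusted p = 3.11e-04, limma). In both other pairs its dose difference was near 0, at 0.04 log2 in males and 0.05 log2 in postnatal females. In perinatal females the SD of Mup 10877295 was 0.74 at 750 ppm and 0.08 at 250 ppm, and that of Alb 0.49 and 0.16. The model takes 1 spread per probe set over all 10 groups. The SEs and p-values of these interactions therefore understate the spread of the 750 ppm females.

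Nat8f1 went the opposite way in the other pairs. Males exposed perinatally had 5.97, 6.43, 6.25 and 6.14 at 750 ppm, against 6.61, 6.99, 6.65 and 6.91 at 250 ppm. Postnatal females had 6.27, 6.48, 6.33 and 6.44 at 750 ppm, against 6.73, 6.88, 7.18 and 6.80 at 250 ppm. In both pairs all 750 ppm values were below all 250 ppm values, the reverse of the perinatal females, but the differences of -0.59 and -0.52 log2 did not pass (adjusted p = 0.0773 and 0.417, limma). The dose difference of perinatal females exceeded that of perinatal males by 1.27 ± 0.18 log2 (SE, adjusted p = 5.18e-04, limma) and that of postnatal females by 1.19 ± 0.18 log2 (SE, adjusted p = 0.00118, limma).

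Fbln2, an extracellular matrix protein, showed a wide contrast between the sexes although its dose difference in females did not pass (0.51 ± 0.17 log2, SE, adjusted p = 0.369, limma). It averaged 8.02 ± 0.14 at 750 ppm and 7.51 ± 0.32 at 250 ppm in perinatal females, and 7.40 ± 0.39 at 750 ppm and 8.34 ± 0.04 at 250 ppm in perinatal males (SD, n = 4 each). The interaction with sex was 1.46 ± 0.24 log2 (SE, adjusted p = 0.00368, limma). Gjb6, the astrocyte gap junction protein connexin 30, was in the same position, with 9.83, 9.80, 10.14 and 9.91 at 750 ppm and 9.39, 9.55, 9.56 and 9.52 at 250 ppm in females (adjusted p = 0.0794) and an interaction with sex of 0.65 ± 0.13 log2 (SE, adjusted p = 0.0236, limma). Its interaction with window was 0.14 ± 0.13 log2 and did not pass (SE, adjusted p = 0.967, limma). In postnatal females Gjb6 was 0.28 log2 higher at 750 ppm. Cdc42ep5 and Sult1a1 also passed against males, at 0.72 ± 0.13 and 1.06 ± 0.23 log2 (SE, adjusted p = 0.00912 and 0.0448, limma). Against postnatal females neither passed, at 0.42 ± 0.13 and 0.34 ± 0.23 log2 (SE, adjusted p = 0.658 and 0.939, limma). In postnatal females Sult1a1 was also higher at 750 ppm, by 0.52 log2. A dose difference particular to the perinatal window was thus not shown for these 2 genes. For Apoc3, Apoh, Mt1, Mt2A, Tsc22d3, Ret, Egfem1, Phf20l1, Car4, the unnamed 10749778 and the Mup probe sets 10877268, 10877313 and 10877339, neither interaction passed, so a dose difference particular to perinatal females was not shown. The male 750 ppm arrays bear sample numbers 3444 to 3447 and the male 250 ppm arrays 2865 to 2868, so number range and dose cannot be told apart in males either. The same holds for postnatal females, with 2821 to 2824 at 750 ppm and 2841 to 2844 at 250 ppm.

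**Figure D5:**
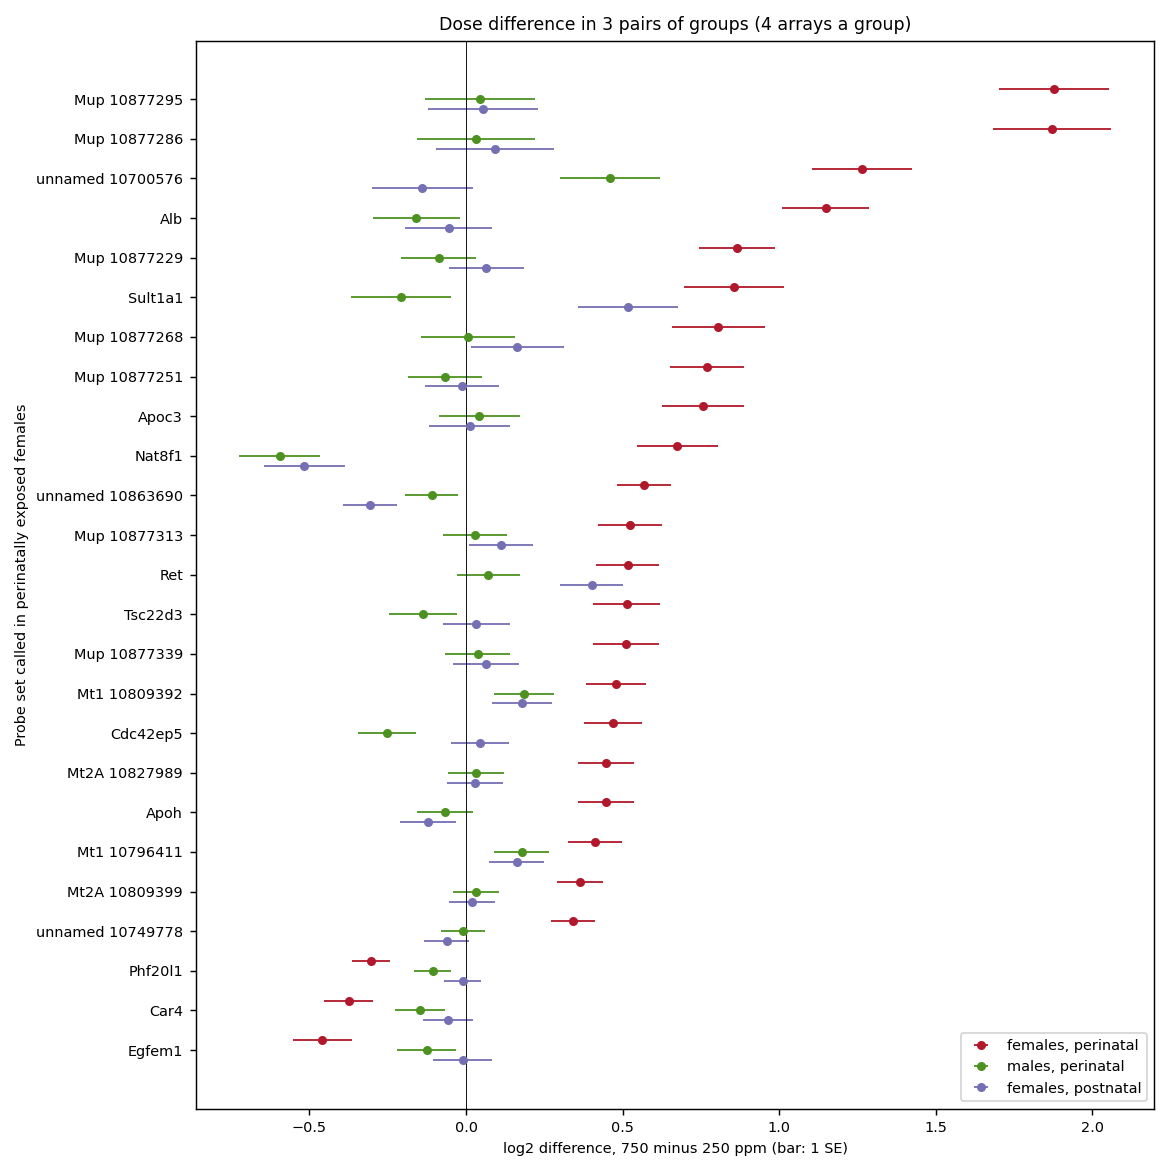
Log2 difference of 750 minus 250 ppm (horizontal axis, bars 1 SE) for the 25 probe sets called in perinatally exposed females (red), with the same dose difference in perinatally exposed males (green) and postnatally exposed females (purple). Mup 10877295 is at 1.88 in the red group and near 0 in the others, and Nat8f1 is at 0.67, -0.59 and -0.52.

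Neuronal genes tied to lead in toxicology differed little between the doses. Grin1 had 11.08, 11.15, 11.11 and 11.13 at 750 ppm and 11.22, 11.11, 11.09 and 11.21 at 250 ppm, with overlapping groups. This NMDA receptor subunit differed by -0.04 ± 0.04 log2, Grin2a by -0.05 ± 0.03 log2 and Grin2b, the subunit that prevails early in development, by -0.11 ± 0.04 log2 (SE, adjusted p = 0.801, 0.725 and 0.381, limma). Of 14 glutamate receptor genes 4 were higher, and of 13 genes of GABA receptors and interneurons 8 were, with medians of -0.05 and 0.05 log2, where 57.2% of all genes were higher. None passed in limma, and an unadjusted p under 0.05 was found for 2 lower members of the first list and 2 higher members of the second. Of 28 calcium signalling genes 21 were lower at 750 ppm, with a median of -0.04 log2. None of them passed, and an unadjusted p under 0.05 was found for 8 lower members and 1 higher member, where 2.01% of all genes were lower with such a p. Camk2a, the kinase of synaptic plasticity, had 12.90, 12.88, 12.85 and 12.92 at 750 ppm and 12.96, 12.92, 13.02 and 12.95 at 250 ppm (-0.07 ± 0.03 log2, SE, adjusted p = 0.446, limma). Bdnf, a neurotrophin, was at 7.43 ± 0.09 at 750 ppm and 7.38 ± 0.12 at 250 ppm (SD, n = 4 each), and Npas4, an activity-induced factor, had a wide spread (8.31 ± 0.37 at 750 ppm and 8.81 ± 0.52 at 250 ppm). Alad, the heme enzyme that lead inhibits, was at 8.60 ± 0.04 at 750 ppm and 8.55 ± 0.12 at 250 ppm, and none of the 11 genes in the heme list, which does not hold Alas2, had an unadjusted p under 0.05.

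None of the myelin, oligodendrocyte precursor, astrocyte, microglia or endothelial genes passed in limma. An unadjusted p under 0.05 was found for 1 myelin gene, which was lower, and for 1 precursor, 3 astrocyte, 3 microglia and 2 endothelial genes, which were higher. Of all genes, 6% were higher with such a p and 2.01% were lower with one. Of 12 myelin genes 11 were lower at 750 ppm, with a median of -0.12 log2. Opalin, a myelin membrane protein, had 10.55, 10.29, 9.62 and 10.22 at 750 ppm and 10.33, 10.21, 10.93 and 10.62 at 250 ppm, so the groups overlapped (adjusted p = 0.549, limma). The lowest array was again 750 ppm replicate 3, and without it the list's median was -0.05 log2. In bulk tissue, fewer cells of a type and less RNA per cell cannot be told apart. Of 11 astrocyte and 11 microglia markers 9 each were higher, with medians of 0.06 and 0.07 log2, where 57.2% of all genes were higher. Without members already known from earlier results of these data, 8 of 10 astrocyte markers were higher and 2 had an unadjusted p under 0.05. Slc19a3, the thiamine transporter of vessel walls, had 8.06, 8.42, 8.65 and 8.50 at 750 ppm and 7.70, 7.88, 7.43 and 7.66 at 250 ppm. These groups were apart, with a difference of 0.74 ± 0.19 log2 (SE) and an adjusted p of 0.179 in limma. Of the remaining lists, 15 of 17 genes of oxidative stress defence, 14 of 18 of heat shock and ER stress and 11 of 14 of the circadian clock were higher, with medians of 0.06, 0.04 and 0.07 log2, and 10 of 12 interferon-induced genes were lower, with a median of -0.07 log2. None of these genes passed in limma, and 3, 1, 3 and 0 of them had an unadjusted p under 0.05. Of 13 carbonic anhydrase genes, Car4 was the only one called. A list of 8 genes that recur across the lead groups was chosen on these arrays and is no independent evidence. In it Nat8f1 passed, and Fcrl2 (0.79), Ldaf1 (0.35) and Tmem63a (-0.51 log2) did not.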

How the data were processed

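Values were used as deposited. They are log2 signals that the authors obtained by RMA, a method that subtracts background, brings arrays to 1 distribution and sums up probes, and Partek is named as well, per the submitters' processing notes, without versions. Per the labels, biotinylated cRNA was made from 100 ng of total RNA on Affymetrix arrays. The number of arrays limits precision.

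Groups came from the labels. Replicates are numbered in accession order and pair no samples. A model of 10 group means was fitted to all 40 arrays (limma 3.58.1, R 4.3.3, statmod 1.5.0) with a trend of variance on signal. Two-sided p-values were adjusted by Benjamini-Hochberg over all probe sets of a contrast, and called at 0.05. Of 29214 probe sets, 15310 carry 1 symbol, 323 several and 13581 none. Each of 14506 genes was represented in lists by its brightest single-symbol probe set. By rule, the text names up to 16 called genes a direction, up to 3 members of smallest p and any called member of a list, called Mup probe sets, the 3 genes of smallest p per interaction, and genes known from lead toxicology or earlier results. Other genes, unnamed probe sets and list examples given by difference alone were chosen after their values were seen. The comparison, its lists and the rule were chosen with earlier results of these data known. Figures were drawn with matplotlib 3.10.9.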

Additional observations from a re-analysis of the deposited data

Results flagged for a closer look

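Of 148 groups of 4 values screened, 14 had 1 array far from the other 3, where chance flags about 1 in 20. In the 750 ppm females, replicate 3 stood above the rest for Mup probe sets 10877295 (6.94), 10877286 (7.35), 10877229 (5.38), 10877268 (5.36) and 10877313 (4.77), replicate 2 for Alad (8.66), and replicate 1 stood below for Ldaf1 (8.32). In the 250 ppm females, replicate 1 stood above for Apoh (5.27), replicate 3 above for Gc (4.97) and Ttr (13.17) and below for Tef (9.72), replicate 2 below for Aldoc (12.15), and replicate 4 below for the unnamed probe set 10863690 (9.12) and above for Ldaf1 (8.73).

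Dose differences (750 minus 250 ppm) of perinatal females and perinatal males differed for 11 of the named probe sets (limma). The size of that difference was 1.83 log2 for Mup 10877295, 1.84 for 10877286, 0.95 for 10877229 and 0.84 for 10877251, 1.31 for Alb, 1.27 for Nat8f1, 1.46 for Fbln2, 1.06 for Sult1a1, 0.72 for Cdc42ep5, 0.65 for Gjb6 and 0.68 for 10863690. Perinatal and postnatal females differed for 6, by 1.82 log2 for Mup 10877295, 1.78 for 10877286, 1.20 for Alb, 1.19 for Nat8f1, 1.40 for 10700576 and 0.88 for 10863690.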

How the results depend on the processing

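No direction reversed among the 25 called probe sets under the alternatives run. This says little, because their groups did not overlap and several of the settings leave the differences as they were. The counts moved. The 25 called between doses in perinatal females became 16 without the 40% of probe sets of lowest mean, which removes 9 of the 25, 10 in a fit of the compared groups only, 49 with array weights, and 2 without the liver list and Mup probe sets. In that last setting fewer small p-values enter the adjustment, differences stay as they were, and the 13 others had adjusted p from 0.0518 to 0.0716. Leaving out 1 array gave 8 to 26. The count was 8 without 750 ppm replicate 3, 12 without 250 ppm replicate 3, 14 without 250 ppm replicate 2 and 15 without 750 ppm replicate 2. The 26 interactions with sex became 13 without the dimmest probe sets and 14 in the compared groups, and ran from 20 to 32 when 1 array was left out. The 9 interactions with window became 20 after a further quantile normalization, 16 in the compared groups, 15 with array weights and 16 without the 3 control arrays whose sex-linked transcripts go against the label, a setting chosen after seeing the data. They ran from 6 to 17 when 1 array was left out, with 17 without perinatal 750 ppm replicate 2 and 16 without postnatal 250 ppm replicate 4. The cause was not tested. Mup probe sets 10877295, 10877286, 10877229 and 10877251, Alb, 10700576 and 10863690 passed with any 1 of the 8 arrays left out. No paired analysis was possible because the labels give no replicate numbers. Depth has no measure in these files, and dim probe sets such as those of Mup lack a detection call.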
